A study of Mus musculus with 54 samples.

Results

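The 8 genes described here encode C-type lectin receptors of myeloid cells: Clec4a1, Clec4a2, Clec4a3, Clec4d, Clec4e, Clec4n, Clec5a and Clec10a. They were chosen by symbol, and a row was found for all 8 among the 33280 gene symbols of the count tables. RNA was sequenced from microglia (MG) and from subdural CNS-associated macrophages (sdCAMs, CD206+ macrophages of the brain surface and perivascular spaces), sorted from mouse brains without choroid plexus, in 54 libraries that form 18 groups of 3. Wild-type (WT) mice and mice labelled Ccr2-/- (a global deletion of the chemokine receptor gene Ccr2) each gave MG and sdCAMs in 3 conditions: untreated with PBS, vehicle (CTL) with LPS, and BLZ945 with LPS. BLZ945 blocks the CSF1 receptor and depletes these macrophages, which then repopulate, and LPS is bacterial lipopolysaccharide. The LPS was given 8 weeks after the end of CTL or BLZ945, and cells were taken 12 h later. Reporter mice carried a tamoxifen-dependent Cre under Ccr2 and a tdTomato (tdT) gene at R26, and the labels give both loci as homozygous. All reporter mice received tamoxifen and BLZ945, then LPS or PBS, and gave MG, tdT+ sdCAMs and tdT- sdCAMs. Since Cre is driven by Ccr2, tdT marks cells with Ccr2 expression at the time of tamoxifen, and their progeny, and says nothing of other origins. The untreated mice had no vehicle, so in WT mice and mice labelled Ccr2-/- the change with LPS is a change with vehicle and LPS together.

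C-type lectin receptors bind sugars and lipids on microbes and on damaged cells. Clec4e (Mincle), Clec4d (MCL) and Clec4n (Dectin-2) pair with the Fc receptor gamma chain, encoded by Fcer1g, and signal through the kinase Syk and the adaptor Card9 to inflammatory genes. Clec4a2 (DCIR) carries an inhibitory motif that recruits phosphatases, and Clec4a1 and Clec4a3 are its close relatives. Clec5a (MDL-1) signals through the adaptor encoded by Tyrobp, and Clec10a binds galactose-type sugars and is known from tissue macrophages and dendritic cells.

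Library totals ran from 1705930 to 11330781 counts. Marker genes were read as a check of the sort labels. The 9 markers of border macrophages summed to 8860 to 16300 CPM (counts scaled to library size and composition) in untreated WT sdCAMs and to 10.7 to 12.1 CPM in the MG of these mice. The 8 microglial markers did not separate as cleanly, their median as a share of that mouse's MG being 21.8% to 38.3% in untreated WT sdCAMs, 12.9% to 20.7% in WT sdCAMs after CTL and LPS, and 7.23% to 13.6% in sdCAMs labelled Ccr2-/-. The titles of the libraries labelled Ccr2-/- after LPS and their cell type field disagree on which of MG and sdCAMs they hold, and by the field the same markers summed to 6350 to 8160 CPM in sdCAMs and 8.96 to 16.6 CPM in MG. Ccr2 itself went against the genotype label after CTL and LPS, with a mean of 3.94 CPM in sdCAMs labelled Ccr2-/- and 0.354 CPM (at most 2 counts per library) in WT sdCAMs. In untreated sdCAMs it went with the label, at 32.3 CPM in WT and 3.45 CPM in those labelled Ccr2-/-. In untreated MG the means were 5.91 and 5.55 CPM. A tdT+ library, mouse 5 after LPS, stood apart, with microglial markers at a median of 81.5% of their level in MG of the same mouse, against 2.55% to 14.6% in the other reporter sdCAM libraries. tdT- mouse 1 and tdT+ mouse 7 after LPS conflict: the column name of each carries the index number that the labels give the other. Counts of members called with LPS in reporter sdCAMs are given as labelled and with this pair exchanged. Values of single genes are as labelled unless stated. Genotype, count table and, for reporter mice, batch label cannot be told apart, so levels of different genotypes stand side by side without a test.

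On mouse chromosome 6, Clec4n, Clec4d and Clec4e follow one another as neighbouring protein-coding genes, with Clec4a1 and Clec4a3 adjacent a little before them in the same order of genes, and Clec4a2 between Clec4b1 and Clec4b2. Clec5a lies elsewhere on chromosome 6, and Clec10a lies next to Mgl2 on chromosome 11. RefSeq promoter windows of 300 bases around the start site were given for 6 of the members, and 4 are shown: Clec4d and Clec4e, the neighbours with the largest changes after LPS, Clec4a1, whose change with LPS differed between cell types, and Clec5a, the member not called as higher in sdCAMs. The sequences are from build GRCm38.p6, 5′ to 3′ on the gene's strand, and capitals mark matches on either strand to the motifs named after them.
Clec4d, chr6:123261857-123262156, plus strand: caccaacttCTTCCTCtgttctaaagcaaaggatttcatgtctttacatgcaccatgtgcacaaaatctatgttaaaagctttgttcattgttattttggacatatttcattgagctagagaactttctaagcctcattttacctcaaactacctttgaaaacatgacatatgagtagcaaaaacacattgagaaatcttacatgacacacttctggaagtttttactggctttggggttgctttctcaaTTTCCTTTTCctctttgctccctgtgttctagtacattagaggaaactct
Clec4e, chr6:123289822-123290121, minus strand: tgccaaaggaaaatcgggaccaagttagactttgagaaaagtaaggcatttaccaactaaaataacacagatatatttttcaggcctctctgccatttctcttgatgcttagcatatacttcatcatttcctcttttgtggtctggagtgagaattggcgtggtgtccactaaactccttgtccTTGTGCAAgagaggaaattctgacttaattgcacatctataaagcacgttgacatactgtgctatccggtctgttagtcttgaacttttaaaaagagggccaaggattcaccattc
Clec4a1, chr6:122921598-122921897, plus strand: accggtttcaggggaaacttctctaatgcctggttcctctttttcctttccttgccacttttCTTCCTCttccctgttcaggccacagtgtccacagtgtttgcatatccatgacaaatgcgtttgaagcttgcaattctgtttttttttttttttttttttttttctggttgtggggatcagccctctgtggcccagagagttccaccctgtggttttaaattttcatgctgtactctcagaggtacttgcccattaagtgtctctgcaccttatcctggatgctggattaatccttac
Clec5a, chr6:40585756-40586055, minus strand: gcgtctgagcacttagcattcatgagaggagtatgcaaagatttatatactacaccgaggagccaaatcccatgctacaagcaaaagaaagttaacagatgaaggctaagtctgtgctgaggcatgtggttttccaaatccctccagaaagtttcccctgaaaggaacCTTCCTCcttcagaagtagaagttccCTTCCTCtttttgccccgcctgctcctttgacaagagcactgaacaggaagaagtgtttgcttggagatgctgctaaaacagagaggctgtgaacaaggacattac

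The motifs searched were an NF-kB motif, GAGGAAG (PU.1), TTGCNNAA (C/EBP), TGANTCA (AP-1), an interferon-stimulated response element and CACGTG (E-box). The PU.1 letters, named for a factor that myeloid cells depend on, occurred in Clec4a1, Clec4d and Clec5a, that is in 3 of the 6 members with a window and in 13.6% of all 32851 windows. In Clec5a they occurred at 2 places, 82 and 56 bases before the start site. The C/EBP letters occurred in Clec4e 66 bases before the start (10.8% of windows), the interferon element letters in Clec4d at the start itself (3.44%) and the AP-1 letters in Clec4a2 (7.81%). No member's window held the NF-kB letters (4.59% of windows) or the E-box letters (7.15%). These are matches of letters only, and the motifs do not overlap each other in these windows.

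In cells that had not seen LPS, most of these receptors belonged to sdCAMs. In untreated WT mice, 7 of the 8 members passed the test as higher in sdCAMs than in MG (edgeR quasi-likelihood test with Benjamini-Hochberg adjustment over all genes tested, called at an adjusted p under 0.05 and a change of more than 1 on the log2 scale), where 17.1% of all genes tested were called in either direction. The count was also 7 in mice labelled Ccr2-/- (15% of all genes) and in reporter mice after PBS, tdT+ and tdT- sdCAMs averaged (11.1%). Clec5a was the exception in each case. For Clec4d and Clec4e, which were low, the call is not firm. Fits without a library lost Clec4e in 4 of 6 cases in mice labelled Ccr2-/- (adjusted p up to 0.0708) and in 4 of 9 in reporter mice (adjusted p up to 1). With only the libraries compared in the fit, the counts were 5 in WT mice and 5 in reporter mice, Clec4d and Clec4e being lost in both, and 6 in mice labelled Ccr2-/-, Clec4e being lost. Since these are bulk samples, fewer expressing cells and less RNA per cell cannot be told apart.

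Clec10a and Clec4n had the widest contrast. Clec10a lay at 350.1, 303.2 and 248.7 CPM in untreated WT sdCAMs and had no count in any of the 3 MG libraries, at least 942-fold higher in sdCAMs when set against the level that 3 counts give in the smallest of these MG libraries. Clec4n lay at 108.3, 113.7 and 195.3 CPM in these sdCAMs, again with no count in MG, at least 436-fold higher. In mice labelled Ccr2-/-, Clec4n lay at 613.7, 610.5 and 520.9 CPM in sdCAMs and at 0.298, 0.6 and 0 CPM in MG, the last from 3, 7 and 0 counts. The sdCAM libraries thus did not overlap MG in either genotype for either gene.

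Clec4a1 was graded in the same direction, at 145.2, 327.2 and 207.9 CPM in untreated WT sdCAMs and 1.06, 1.63 and 2.16 CPM in MG, a log2 difference of 7.13 ± 0.754 (SE, n = 3 mice, adjusted p = 6.69e-06). Its relatives were present in both cell types. Clec4a2 had 217 ± 80.6 CPM (mean ± SD, n = 3) in WT sdCAMs and 53 ± 2.62 CPM in MG, and Clec4a3 had 348 ± 176 and 111 ± 5.92 CPM. The Clec4a2 difference was 2.06 ± 0.475 (adjusted p = 0.00702) and the Clec4a3 difference 1.68 ± 0.511 (adjusted p = 0.0314). The Clec4a3 call is not stable in WT mice: its adjusted p was 0.0728 with the mouse as a block (sdCAMs and MG were sorted from the same animals), and 5 of 6 fits without a library lost it. The labels put an unexplained IEG mark on all WT sdCAM libraries after CTL and LPS, where it follows cell type. It is also on some untreated WT sdCAM libraries and some after BLZ945 and LPS, and on no MG library. With this mark as a covariate, both Clec4a2 (1.36, adjusted p = 0.0586) and Clec4a3 (0.52, adjusted p = 0.464) lost the call. In mice labelled Ccr2-/- the corresponding differences were 1.55 ± 0.219 and 1.47 ± 0.195 (adjusted p = 2.49e-05 and 1.18e-05).

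Clec5a went the other way without passing the test. It lay at 204.1, 201.5 and 190.7 CPM in untreated WT MG and at 144.5, 44.2 and 95 CPM in sdCAMs, groups that did not overlap, with a log2 difference of -1.05 ± 0.424 (adjusted p = 0.0925). In mice labelled Ccr2-/- it was -0.74 ± 0.189 (adjusted p = 0.00728), under the limit on size. Per kilobase of exon, which allows genes to be compared, Clec4a3 was the most abundant member in untreated WT MG (83.8 ± 4.46 CPM per kb) and Clec5a the next (51.8 ± 1.85). In untreated WT sdCAMs the order of the means was Clec4a3 (262 ± 133), Clec4a1 (146 ± 59.3), Clec10a (104 ± 17.5), Clec4n (98 ± 34.3), Clec4a2 (74.3 ± 27.6) and Clec5a (24.6 ± 13.1), and neighbours in this order overlap in their libraries except Clec4a2 and Clec5a. Clec4d (2.41 ± 1.87) and Clec4e (0.399 ± 0.409) were close to absent. Up to 9.02% of the 50-base windows of a member's transcripts also occur in another gene, for Clec10a (shared with Mgl2), and 6.69% for Clec4a2 (Clec4a4), so reads of these 2 genes are uncertain to that extent.

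**Figure D1:**
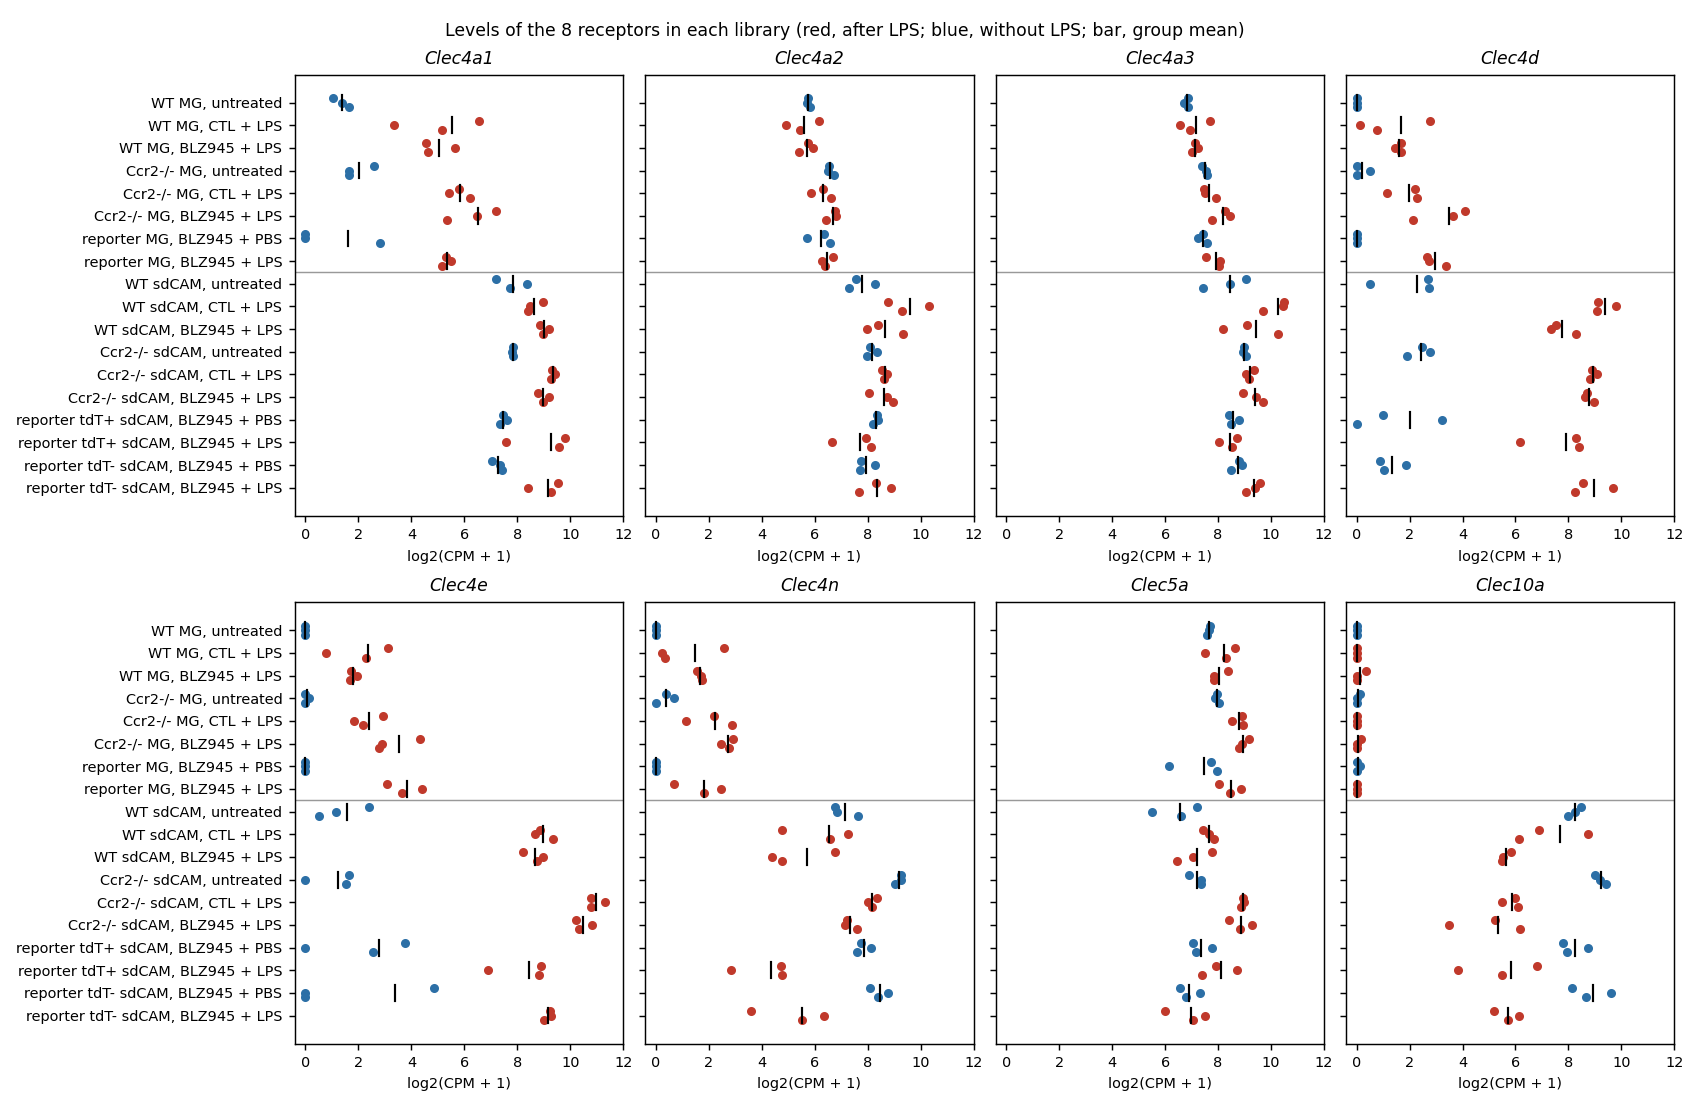
Level of each receptor in each of the 54 libraries, as log2(CPM + 1) on the horizontal axis, with the groups as rows (MG above the line, sdCAMs below), red points after LPS, blue points without it and a black bar at the group mean. Clec4d and Clec4e sit below 5 in every blue row and above 6 in every sdCAM library after LPS, Clec10a is near 0 in all MG, and Clec5a spans nearly the same levels in both cell types.

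Clec4d and Clec4e rose with LPS in every sdCAM population tested, and these were the largest changes among the members. In WT sdCAMs, Clec4e went from 4.28, 1.22 and 0.438 CPM in untreated mice to 457.9, 403.2 and 641.9 CPM after CTL and LPS, a log2 change of 8.05 ± 0.888 (adjusted p = 0.0016). Clec4d went from 5.45, 0.406 and 5.69 CPM to 552.7, 889 and 539.9 CPM, a change of 7.55 ± 0.916 (adjusted p = 0.00213). These 2 were the only members called in WT sdCAMs (2 of 8, with 6.32% of all genes tested called), and the libraries with and without LPS are far from overlapping. Composition scaling raised the levels of this group after LPS: without it the Clec4e mean was 207 CPM in place of 501 CPM, and that of Clec4d 259 in place of 661 CPM. Clec4a2 and Clec4a3 were also called when DESeq2 replaced edgeR, which makes 4.

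In sdCAMs labelled Ccr2-/-, 6 of the 8 members were called (21.5% of all genes tested). Clec4e went from 2.09, 0 and 1.92 CPM to 1745, 2538 and 1738 CPM, a change of 10.51 ± 0.563 (adjusted p = 7.4e-08). That is 2010 ± 460 CPM (mean ± SD, n = 3), the highest group mean of any member in the series. Clec4d went from 4.5, 5.82 and 2.71 CPM to 471.5, 536.7 and 453.8 CPM, a change of 6.81 ± 0.266 (adjusted p = 8.38e-09). Per kilobase of exon Clec4e (404 ± 92.6) and Clec4d (305 ± 27.3) then stood beside Clec4a3 (439 ± 43.4) and Clec4a1 (412 ± 23.3).

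In reporter sdCAMs, 5 members were called in tdT+ cells (13.4% of all genes tested), 5 in tdT- cells (26.5%) and the same number for the mean of both (28.8%). Clec4e lay at 12.6, 0 and 4.87 CPM in tdT+ cells after PBS and at 477.7, 117.9 and 449.5 CPM after LPS, the lowest of the last 3 being mouse 5. In tdT- cells it lay at 28.2, 0 and 0 CPM after PBS, so that mouse 174 alone carried counts, and at 602.4, 611.8 and 513 CPM after LPS. The log2 changes were 5.89 ± 1.62 and 5.92 ± 1.62 (adjusted p = 0.0251 and 0.0129). Clec4d changed by 6.29 ± 1.09 in tdT+ and 8.32 ± 1.2 in tdT- cells (adjusted p = 0.00159 and 0.000113). The tdT+ count was 5 without mouse 5 as well, but 2 without the pair of libraries with conflicting index numbers, and 2 or 3 without tdT+ mouse 1 or 7 after LPS or mouse 175 or 177 after PBS. With the pair exchanged, 4 were called in each population, and Clec4e was lost (adjusted p = 0.0589 in tdT+ and 0.0553 in tdT- cells). The mean of both populations kept 5 calls under exchange or omission of that pair, with the counts of each mouse summed, and without any 1 library.

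**Figure D2:**
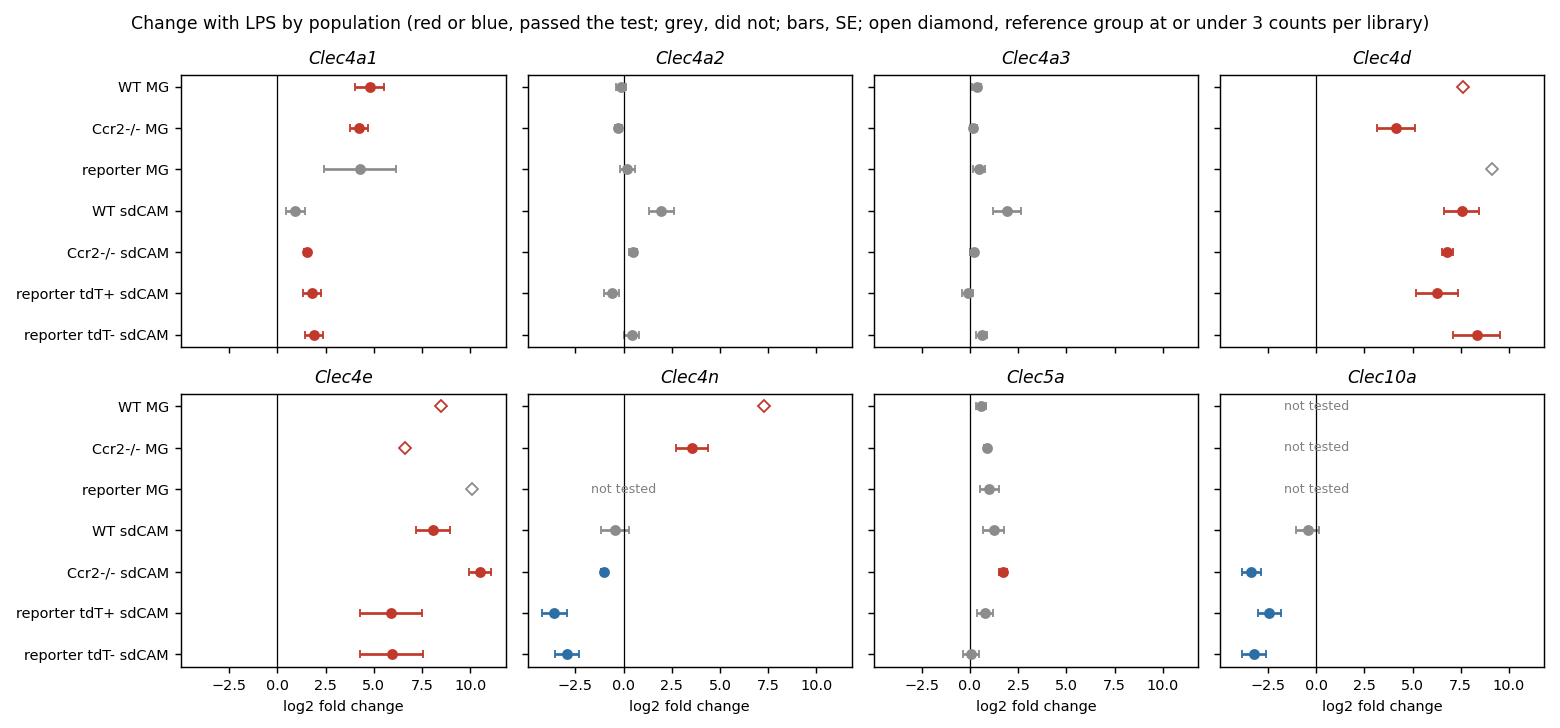
Log2 fold change with LPS (horizontal axis) of each receptor in 7 populations (rows), with bars for the SE, red or blue where the change passed the test as higher or lower and grey where it did not. Open diamonds mark fitted values against a reference group with at most 3 counts per library, whose size depends on the fit. Clec4d and Clec4e are red in all 4 sdCAM rows, Clec4n is red in 2 MG rows and blue in 3 sdCAM rows.

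Neutrophils and monocytes express Clec4d and Clec4e, and their markers were read in the same libraries. The 11 neutrophil markers summed to 1.75 to 94.6 CPM in untreated WT sdCAMs and to 361 to 3310 CPM after CTL and LPS. In sdCAMs labelled Ccr2-/- the sums were 1.4 to 3.14 and 78.3 to 125 CPM, in tdT- sdCAMs 0 to 4.32 and 598 to 2360 CPM, and in tdT+ sdCAMs 0 to 1.38 and 19.3 to 71.5 CPM. Most of the sum after LPS was S100a8, with a mean of 1410 CPM in WT sdCAMs after CTL and LPS, while its partner S100a9 had 3.4 CPM. The defining marker Ly6g had no count in any sdCAM library, and Cxcr2 had at most 3.37 CPM. The neutrophil collagenase Mmp8, in contrast, was called as higher in all 4 sdCAM populations, with means of 0 and 10.1 CPM in WT, 0.0349 and 21.3 CPM in those labelled Ccr2-/-, 0 and 16.4 CPM in tdT+ and 1.44 and 58.6 CPM in tdT- cells. Camp, a granule peptide, had 0 CPM in untreated WT sdCAMs and a mean of 10.7 CPM after CTL and LPS. The 8 monocyte markers summed to 2.44 to 9.28 CPM in untreated sdCAMs labelled Ccr2-/- and 112 to 200 CPM after LPS, and to 28.9 to 56.5 and 27.9 to 120 CPM in WT sdCAMs. In reporter sdCAMs their sums were higher after PBS, 230 to 286 CPM in tdT+ and 146 to 309 CPM in tdT- cells, than after LPS, 36.8 to 156 and 41.3 to 128 CPM. The part of S100a8 and the other markers that moved in these changes was not tested.

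**Figure D3:**
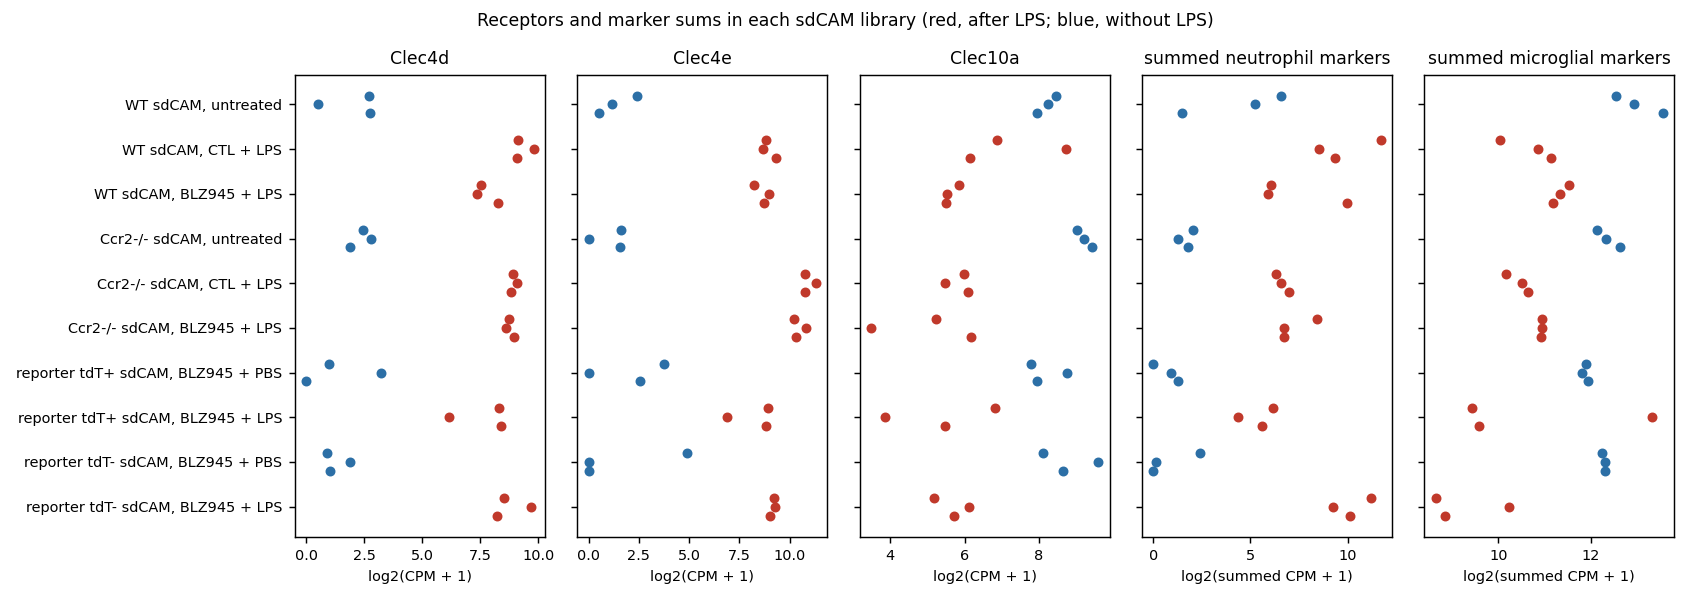
Clec4d, Clec4e and Clec10a (left) beside the summed neutrophil and microglial markers (right) in each sdCAM library, on log2(CPM + 1) scales, red after LPS and blue without it. The neutrophil sum differs between populations after LPS (78.3 to 125 CPM in sdCAMs labelled Ccr2-/-, 598 to 2360 in tdT- sdCAMs, 19.3 to 71.5 in tdT+ sdCAMs), and tdT+ mouse 5 stands out in microglial markers.

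In MG the same pair appeared after LPS at levels far under those of sdCAMs. WT MG had no count of Clec4e, Clec4d or Clec4n in any untreated library. After CTL and LPS, Clec4e lay at 7.71, 0.718 and 3.85 CPM, at least 12.8-fold higher (adjusted p = 0.0018). Clec4d lay at 5.88, 0.0898 and 0.685 CPM, at least 6.96-fold higher (adjusted p = 0.015), and Clec4n at 4.89, 0.18 and 0.257 CPM, at least 5.57-fold higher (adjusted p = 0.0186). With Clec4a1, 4 of the 7 members tested were called in WT MG, and 16.7% of all genes tested. The values rest largely on mouse 1, the highest for each gene: without it, 2 members were called, Clec4d and Clec4n having adjusted p = 0.0537 and 0.0853, and with only the libraries compared in the fit, 1 was.

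MG labelled Ccr2-/- gave 4 calls among 7 tested as well (19.4% of all genes), and here 4 remained without any 1 library. Clec4e went from 0, 0.0857 and 0 CPM to 6.52, 2.58 and 3.56 CPM (at least 12.8-fold higher, adjusted p = 0.000125). Clec4d changed by 4.13 ± 0.974 and Clec4n by 3.55 ± 0.849 (adjusted p = 0.00457 and 0.00498). In reporter MG 0 of the 6 members tested were called by edgeR (1.08% of all genes tested), 2 of them at an unadjusted p under 0.05, and 2 were called by DESeq2. Clec4e lay there at 0 CPM in all PBS libraries and at 7.54, 20.2 and 11.6 CPM after LPS (adjusted p = 0.0675), and Clec4d at 0 and at 5.37, 5.58 and 9.38 CPM (adjusted p = 0.0828), so the groups did not overlap. Both were called without PBS mouse 175.

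Since sdCAMs held so much more of these transcripts, the MG levels were set beside markers of border macrophages in the same mice. After CTL and LPS, the median border macrophage marker in WT MG was 0.023% to 0.0515% of its level in sdCAMs of the same mouse, Clec4e 0.178% to 1.68%, Clec4d 0.0101% to 1.06% and Clec4n 0.119% to 18.8%. In mice labelled Ccr2-/- the median marker was 0% to 0.208%, Clec4e 0.102% to 0.374%, Clec4d 0.224% to 0.861% and Clec4n 0.473% to 2.26%. In WT mouse 4, with the lowest Clec4d, its share was thus under that of the median marker (0.0515%). In mice labelled Ccr2-/- Clec4e was above the median marker in each of the 3 mice. The shares were 0.374% against 0.208% in V1m, 0.102% against 0% in V2m and 0.205% against 0.186% in V4f. Single markers lay on both sides of Clec4e, which had means of 4.22 CPM in these MG and 2010 CPM in sdCAMs. Relative to sdCAMs, Mrc1 was higher in MG (3.59 and 1370 CPM) and Pf4 lower (0.179 and 940 CPM). Monocyte markers also moved in MG, from 3.72 to 9.43 CPM in untreated WT MG to 60.8 to 79.4 CPM after CTL and LPS, most of it Fn1 (61.3 CPM). Their part in the MG values was not tested.

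Clec4a1, a relative of the inhibitory Clec4a2, rose with LPS in MG from a low but detected level. In WT MG it went from 1.06, 1.63 and 2.16 CPM to 91.6, 9.25 and 34.7 CPM after CTL and LPS, a log2 change of 4.78 ± 0.742 (adjusted p = 0.000647). In MG labelled Ccr2-/- it went from 4.97, 2.14 and 2.08 CPM to 54.3, 41.5 and 73.6 CPM, a change of 4.22 ± 0.467 (adjusted p = 1.2e-05). In sdCAMs, which had it at rest, the changes were smaller: 0.93 ± 0.507 in WT (adjusted p = 0.282), 1.51 ± 0.146 in those labelled Ccr2-/- (adjusted p = 8.17e-06), 1.8 ± 0.461 in tdT+ and 1.89 ± 0.463 in tdT- cells (adjusted p = 0.0173 and 0.00678). The MG libraries after CTL and LPS are thus above the untreated ones in both genotypes, and remain under every sdCAM library of the same genotype. In WT sdCAMs the direction depends on scaling: without composition scaling, the mean of Clec4a1 was 231 CPM untreated and 155 CPM after CTL and LPS. The tdT+ call of Clec4a1 was lost with the pair of conflicting index numbers left out (1.6, adjusted p = 0.068). It was also lost in 4 of 6 fits without a library (adjusted p up to 0.0846). Reporter MG had 0, 0 and 6.06 CPM after PBS and 38.9, 43.9 and 34.7 CPM after LPS (4.28 ± 1.86, adjusted p = 0.371).

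Clec4a2, the inhibitory member, and Clec4a3 passed the test with LPS in none of the 7 populations. Their log2 changes in MG lay between -0.27 (Clec4a2, labelled Ccr2-/-) and 0.46 (Clec4a3, reporter). In WT sdCAMs the estimates were larger, 1.96 ± 0.646 for Clec4a2 and 1.91 ± 0.722 for Clec4a3 (adjusted p = 0.0906 and 0.127), with no overlap between the groups. Clec4a2 lay at 189.6, 308.1 and 154.1 CPM in these cells untreated and at 433, 1274 and 631.1 CPM after CTL and LPS. Without composition scaling the means were 215 and 306 CPM. In tdT+ sdCAMs the Clec4a2 estimate was -0.62 ± 0.389 and in tdT- sdCAMs 0.43 ± 0.388 (adjusted p = 0.319 and 0.439). The tdT- direction depends on scaling: without composition scaling the Clec4a2 means were 254 CPM after PBS and 187 CPM after LPS. The unscaled tdT+ means of Clec4a2 were 324 and 247 CPM, so both fell. Clec4a3 in tdT- sdCAMs had unscaled means of 445 and 393 CPM, and scaled means of 425 and 657 CPM.

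Clec10a and Clec4n fell with LPS in the sdCAMs labelled Ccr2-/- and in reporter sdCAMs. Clec10a in sdCAMs labelled Ccr2-/- went from 516.6, 589.8 and 690.5 CPM to 62.4, 43.8 and 67.9 CPM, a log2 change of -3.37 ± 0.493 (adjusted p = 0.000238). In tdT- cells it went from 277.8, 777.4 and 403.1 to 35.4, 68.5 and 51.6 CPM (-3.23 ± 0.626, adjusted p = 0.00126), and in tdT+ cells from 219.7, 428.7 and 248.5 to 111.6, 13.4 and 43.8 CPM (-2.43 ± 0.606, adjusted p = 0.0152). The lowest of these, 13.4 CPM, is the library of mouse 5. The tdT+ call is not firm. It was lost with the pair of conflicting index numbers left out (-2.29, adjusted p = 0.0756). It was also lost without tdT+ mouse 7 after LPS (-2.3, adjusted p = 0.0692) and without tdT+ mouse 175 after PBS (-2.08, adjusted p = 0.0519). Each set of libraries after LPS lies under all of its reference libraries.

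In WT sdCAMs neither gene passed the test. Clec10a lay at 117.4, 426.5 and 70 CPM after CTL and LPS, with mouse 4 above every untreated library, and the change of -0.45 ± 0.608 did not pass the test (adjusted p = 0.691). Scaling bears on this group: without composition scaling, the mean of Clec10a was 296 CPM untreated and 76.1 CPM after CTL and LPS, while the scaled means were 301 and 205 CPM. After BLZ945 and LPS, Clec10a lay at 56.5, 45.1 and 44.3 CPM in WT sdCAMs, all under the untreated range. Whether the change with LPS differs between genotypes was not tested, since these sit in separate tables.

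Clec4n fell in the same sdCAM populations as Clec10a. In tdT- sdCAMs it went from 272.1, 435.9 and 337.9 CPM to 10.9, 80.2 and 44.5 CPM (-2.95 ± 0.608, adjusted p = 0.00207), and in tdT+ sdCAMs from 212.8, 281.2 and 192.9 to 25.8, 6.2 and 26.2 CPM (-3.59 ± 0.631, adjusted p = 0.00174). In sdCAMs labelled Ccr2-/- it went from 613.7, 610.5 and 520.9 to 325.7, 254.4 and 284 CPM, a change of -1.01 ± 0.167 (adjusted p = 0.000586) that lies at the limit on size and drops under it with another low-count filter or without any of 4 libraries. In WT sdCAMs it was -0.47 ± 0.724 (adjusted p = 0.734), with overlapping groups. Among dendritic cell markers, 8 of which were read, Cd209a went from a mean of 485 to 106 CPM in sdCAMs labelled Ccr2-/- and from 415 to 0.931 CPM in tdT- sdCAMs, while Xcr1 had at most 1.38 CPM on average in any sdCAM group. Ccr7 went the other way, from 8.22 to 160 CPM in tdT-, 0 to 56.9 CPM in tdT+ and 0 to 2.09 CPM in sdCAMs labelled Ccr2-/-. Zbtb46 went from 32.5 to 9.13 CPM in sdCAMs labelled Ccr2-/- and 40.6 to 5.73 CPM in tdT-, but from 8.77 to 15.6 CPM in tdT+ cells. The list summed to 762 to 1110 and 134 to 237 CPM in sdCAMs labelled Ccr2-/- without and with LPS, Siglech (also a microglial gene) included, and its part in the changes of Clec10a and Clec4n was not tested.

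Clec5a, which signals through the Tyrobp adaptor, had the flattest profile. Its group means ran from 94.6 CPM (WT sdCAMs, untreated) to 496 CPM (MG labelled Ccr2-/-, BLZ945 and LPS), and neighbours in the order of its 18 means overlap in 16 of 17 cases. It passed the test with LPS in sdCAMs labelled Ccr2-/-, from 117.8, 162.2 and 164.4 to 491.4, 507.2 and 469.2 CPM (1.72 ± 0.218, adjusted p = 7.68e-05). In MG labelled Ccr2-/- the change was 0.87 ± 0.143 (adjusted p = 0.000322), under the limit on size. The estimates were 0.58 ± 0.242 in WT MG, 1.23 ± 0.527 in WT sdCAMs, 0.76 ± 0.417 in tdT+ and 0.05 ± 0.416 in tdT- sdCAMs, and none of these passed (adjusted p = 0.0885, 0.176, 0.254 and 0.943). The WT sdCAM direction depends on scaling, with means of 92.6 CPM untreated and 81.6 CPM after CTL and LPS when composition scaling is left out. The tdT- direction does too, with unscaled means of 126 CPM after PBS and 72.4 CPM after LPS (120 and 125 CPM scaled).

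After LPS, sdCAMs still exceeded MG for 7 of the 8 members in WT mice (35.4% of all genes tested called) and in mice labelled Ccr2-/- (18.4%), and for 6 in reporter mice (8.7%), where Clec4a3 had a difference of 1 ± 0.277 that just missed the limit. Clec4e was then 122-fold and Clec4d 298-fold higher in sdCAMs than in MG of WT mice by the ratio of means, and 475-fold and 168-fold in mice labelled Ccr2-/-. Without composition scaling these ratios were 38.1 and 89 in WT mice, and 396 and 140 in those labelled Ccr2-/-. In reporter mice 8 of 9 fits without a library lost Clec4e (adjusted p up to 0.167), and the count was 3 without MG mouse 5 or mouse 7 after LPS, 7 without tdT+ mouse 5, and 5 with the conflicting pair exchanged or left out. The gap narrowed for Clec4a1, from 140-fold at rest to 8.78-fold in WT mice and from 73.5-fold to 11.4-fold in those labelled Ccr2-/-. Without composition scaling the WT ratios were 114 and 2.6.

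That narrowing was tested as an interaction of cell type and LPS. In mice labelled Ccr2-/-, 2 members were called (6.88% of all genes tested): the change with LPS was lower in sdCAMs than in MG by -2.68 ± 0.508 on the log2 scale for Clec4a1 (adjusted p = 0.00191) and by -4.49 ± 0.668 for Clec4n (adjusted p = 0.000196), the latter against untreated MG with 3, 7 and 0 counts. Both were called without any 1 library. In WT mice 1 member was called (1.32%), Clec4a1 at -3.96 ± 0.853 (adjusted p = 0.0298), and 8 of 12 fits without a library lost it, among them those without MG mouse 1 after LPS (-2.89, adjusted p = 0.0756). For members with at most 3 counts per library in a group, such as Clec4e and Clec10a in MG, the fitted interaction has no usable size and is not given.

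**Figure D4:**
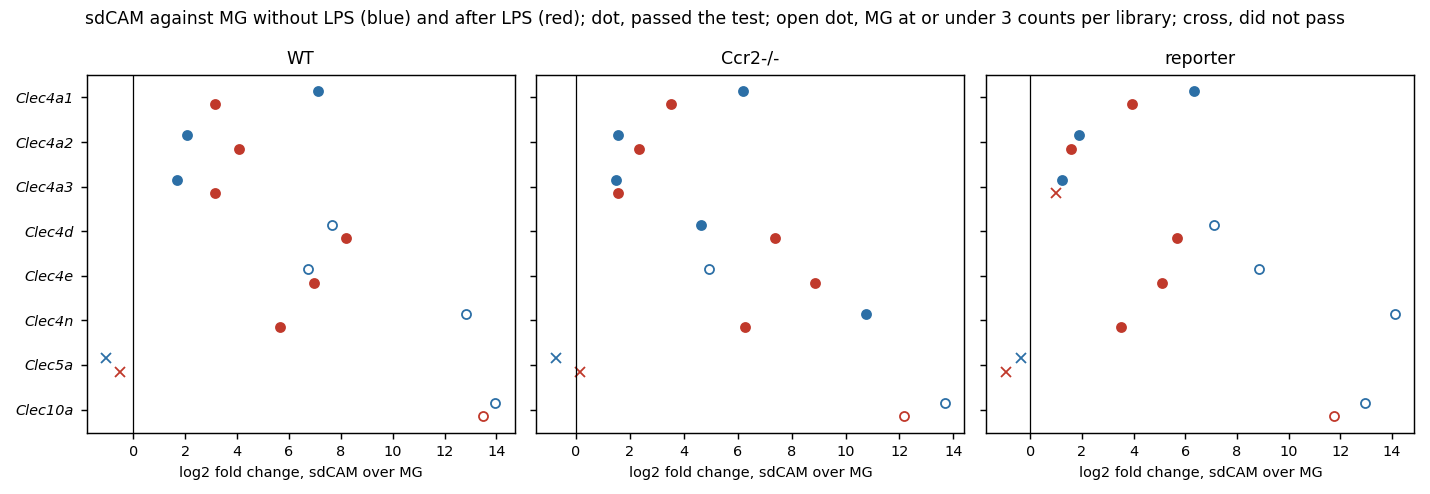
Log2 fold change of sdCAMs over MG (horizontal axis) for each receptor in WT mice, mice labelled Ccr2-/- and reporter mice, blue without LPS and red after it, with dots for differences that passed the test, open dots where MG had at most 3 counts per library, and crosses for those that did not pass. The red Clec4a1 dots lie left of the blue ones in all 3 panels, and Clec5a is a cross throughout.

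Earlier depletion left no call among the members after LPS. Between BLZ945 and CTL, edgeR called 0 members in WT MG (0.0763% of all genes tested), WT sdCAMs (0%), MG labelled Ccr2-/- (0.0173%) and sdCAMs labelled Ccr2-/- (0%), with 0, 2, 3 and 2 members at an unadjusted p under 0.05, and DESeq2 called 0 in each. The estimates ran from -0.71 to 0.29 in WT MG, from -2.13 (Clec10a) to 0.31 in WT sdCAMs, from 0.15 to 1.81 (Clec4d) in MG labelled Ccr2-/- and from -0.87 (Clec4n) to 0.18 in sdCAMs labelled Ccr2-/-. The lowest adjusted p was 0.165, in the last. In WT sdCAMs the sizes and directions depend on scaling. Without composition scaling the means after CTL and after BLZ945 were 155 and 497 CPM for Clec4a1 and 76.1 and 47.3 CPM for Clec10a. Those of Clec4e were 207 and 382 CPM, and its direction turned (501 and 406 CPM when scaled). The ratio of BLZ945 over CTL also turned for Clec4n (0.565 scaled, 1.5 unscaled) and Clec5a (0.721 and 1.88). For Clec4a2 (0.521 and 1.04) and Clec4a3 (0.559 and 1.05) it turned as well. In sdCAMs labelled Ccr2-/-, Clec4n lay at 148.7, 138.7 and 193.3 CPM after BLZ945 and LPS, under all 3 CTL libraries of these cells. In WT sdCAMs its libraries overlapped, at 19.77 to 107.8 CPM after BLZ945 and 26.05 to 151.5 CPM after CTL, as scaled. The unscaled Clec4n means there were 55.1 CPM after BLZ945 and 36.7 CPM after CTL.

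Nor did tdT+ and tdT- sdCAMs of the reporter mice differ by a call. After PBS 0 members were called (0.0236% of all genes tested), 0 of them at an unadjusted p under 0.05 and 0 with DESeq2, and the estimates for tdT+ over tdT- ran from -0.71 (Clec10a) to 0.99 (Clec4d). After LPS 0 were called by edgeR (10.6% of all genes tested), 2 had an unadjusted p under 0.05, and DESeq2 called 1. The estimates ran from -1.25 (Clec4n) to 1.14 ± 0.421 (Clec5a, adjusted p = 0.103), and Clec4a3 had -0.91 ± 0.293 (adjusted p = 0.059). Directions here depend on scaling. Without composition scaling the ratio of means turned for Clec4a2 (0.626 to 1.32) and Clec4a3 (0.532 to 1.08). It also turned for Clec4d (0.488 to 1.04) and Clec4e (0.605 to 1.21), while that of Clec5a went from 2.2 to 4.72. With the mouse as a block, Clec5a was called, and with DESeq2 it was Clec4a3.

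Beyond the members, 28 of 29 other C-type lectins on a list were in the tables, and their calls in sdCAMs after LPS were mostly lower. In sdCAMs labelled Ccr2-/-, 9 of 18 tested were lower and 2 higher, where 10.6% of all genes tested were lower and 10.9% higher. For the mean of tdT+ and tdT- sdCAMs 11 of 21 were lower and 2 higher (12.2% and 16.6% of all genes). In WT sdCAMs 2 of 15 were lower (2.62% of all genes), Mgl2 (the neighbour of Clec10a, -2.62 ± 0.652) and Colec12 (a scavenger receptor, -1.95 ± 0.466). In sdCAMs labelled Ccr2-/- the lower genes with the smallest p were Mrc1 (CD206, on which the cells were sorted, -2.37 ± 0.172), Clec7a (Dectin-1, a beta-glucan receptor, -5.1 ± 0.374) and Cd209f (-5.38 ± 0.431), and the higher genes were Klrb1b (7.7 ± 2.22) and Cd69 (an activation marker, 4.13 ± 1.25). The list's median change was -2 there and -2.5 in reporter sdCAMs, where the medians of all genes tested were -0.05 and 0.07. In MG labelled Ccr2-/-, 3 of 11 were higher, led by Cd69 (5.52 ± 0.519), and 3 lower.

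Of 25 adaptors, kinases and other signalling genes downstream of these receptors, all were tested. In WT sdCAMs 0 of them were called by edgeR (6.32% of all genes tested), 6 had an unadjusted p under 0.05, and DESeq2 called 2. In sdCAMs labelled Ccr2-/-, 5 were higher with LPS and 1 lower (10.9% and 10.6% of all genes), among them the Src-family kinase Lyn (1.57 ± 0.165) and the gamma chain Fcer1g (1.4 ± 0.136), with Nfatc1 lower (-1.89 ± 0.392). In tdT- sdCAMs 9 were higher and 5 lower (26.5% of all genes called in either direction), led by Hcst (4.25 ± 0.587) and Mapk14 (-2.01 ± 0.333), with Fcer1g higher by 3.17 ± 0.544 and Tyrobp by 1.38 ± 0.345. In tdT+ sdCAMs 5 were higher and 1 lower (13.4%), the last being Tyrobp (-1.97 ± 0.352). These tdT+ and tdT- values take the pair of libraries with conflicting index numbers as labelled. In WT MG, where 16.7% of all genes were called, Nfkb1 (-1.17 ± 0.184) and Src (-1.46 ± 0.352) were lower.

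Over the 18 group means on the log2(CPM + 1) scale, members fell in pairs. Clec4d and Clec4e had a Pearson correlation of 0.977, Clec4a2 and Clec4a3 of 0.973, and Clec4n and Clec10a of 0.941, while Clec5a ranged from -0.535 to 0.235 with the other members. The 18 points share cell type and LPS, so these values describe likeness of profile only. Among 10524 genes with a group mean of at least 10 CPM, the profile most like Clec4d was Fpr2 (0.989), a formyl peptide receptor of phagocytes, and the most like Clec10a was Lyve1 (0.987), a marker of border macrophages. Clec4a1 was closest to Ifi211 (0.978), Rbms1 and Cp, Clec4e to Clec4d, Fpr2 (0.973) and Jaml, Clec4n to Tmem106a (0.968), Dok2 and Colec12, and Clec5a to Vapa (0.958), Psme3 and Gde1.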

How the data were processed

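RNA-seq was done on sorted MG and sdCAMs from 24 mice, in 54 libraries of 50-base single reads with no molecular identifiers. The authors deposited raw counts per gene symbol in 3 tables, and their processing notes name bcl2fastq 2.20, STAR 2.7.11a, featureCounts 2.0.8 and DESeq2 1.46.0. Strand use and a single genome build are not given in the sources used here, so antisense or overlapping genes cannot be told apart.

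Counts of each genotype were fitted with edgeR 4.0.16 in R 4.3.3 (filterByExpr, TMM scaling, quasi-likelihood test), with Benjamini-Hochberg adjustment over all genes tested. Comparisons of sdCAMs with MG and the interactions used all groups of a genotype in 1 fit. The other comparisons used all libraries of that cell type and genotype, with tdT+ and tdT- sdCAMs fitted together. Calls needed an adjusted p under 0.05 and a log2 change above 1. The SE is the size of the log2 change divided by the square root of F. Levels are TMM-scaled CPM over all libraries, and at-least folds use 3 counts per library. The 22 comparisons and the named genes (all 8 members, and for other lists at most 3 called genes a direction, by smallest p) follow a written design (some list genes are not reported here), but members and lists were chosen with earlier results of these data known. MG and sdCAMs of a mouse are paired by the labels. Correlations of their deviations from the group means ran from -0.127 to 0.323. The fit was tested on simulated data. Alternatives were DESeq2 1.42.0, other scaling and filters, the mouse as a block, a covariate, and omission of each library. P-values measure the spread between mice only in fits with 1 library per mouse. In fits of both cell types, or of tdT+ and tdT- sdCAMs, libraries of the same mouse entered without their pairing, except with the mouse as a block. Depth (1705930 to 11330781 counts) limits the genes near 0.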

Additional observations from a re-analysis of the deposited data

Results flagged for a closer look

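The change with LPS differed between sdCAMs and MG, by a test of the difference itself, for 2 members. For Clec4a1 the change in sdCAMs minus that in MG was -3.96 ± 0.853 on the log2 scale in WT mice (edgeR, adjusted p = 0.0298) and -2.68 ± 0.508 in mice labelled Ccr2-/- (adjusted p = 0.00191). For Clec4n it was -4.49 ± 0.668 in mice labelled Ccr2-/- (adjusted p = 0.000196), where the untreated MG libraries held 3, 7 and 0 counts. The WT value was lost in 8 of 12 fits that left out 1 library, and the other 2 values in none of 12. Groups of 3 are too small for the test of single outlying samples, so no sample was singled out by it.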

How the results depend on the processing

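Counts of members called kept within 1.5 times of their value in 145 settings and moved in 11, without the fits that leave out 1 library. With DESeq2, 4 members were called with LPS in WT sdCAMs, 2 in reporter MG, 3 for the WT interaction and 1 for tdT+ over tdT- after LPS. Without a low-count filter, these were 1 in reporter MG, 2 for the WT interaction and 2 for tdT+ over tdT- after LPS, and with median-of-ratios factors 1 for the last. With only the libraries compared, 1 was called in WT MG, and without the libraries with conflicting index numbers 2 in tdT+ sdCAMs. With the mouse as a replicate block, 1 member (Clec5a) was called for tdT+ over tdT- after LPS, 6 for untreated WT sdCAMs over MG, and the other blocked counts did not change. Leaving out 1 library at a time gave 2 to 4 calls in WT MG, 0 to 2 in reporter MG, 2 to 5 in tdT+ sdCAMs, 0 to 1 for the WT interaction, 3 to 7 for reporter sdCAMs over MG after LPS and 0 to 1 for tdT+ over tdT- after LPS. The cause was not tested.

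Values that changed sign were not called in the first place. They were Clec4a3 in tdT+ sdCAMs (0.34 with the conflicting columns exchanged), Clec5a in tdT- sdCAMs (-0.07 without a filter) and Clec4a2 in the mean of both (0.02 with DESeq2 and 0.02 with median-of-ratios factors). Leaving out 1 library, Clec4a2 ran from -0.54 to 0.1 and Clec4a3 from -0.03 to 0.58 with LPS in WT MG, and Clec4a3 from 0 to 0.25 in MG labelled Ccr2-/-. In reporter sdCAMs, Clec4a3 ran from -0.28 to 0.03 in tdT+ cells, Clec5a from -0.35 to 0.33 in tdT- cells and Clec4a2 from -0.29 to 0.03 in the mean. In mice labelled Ccr2-/-, Clec5a in sdCAMs over MG after LPS ran from -0.01 to 0.19, and the interaction from -0.05 to 0.21 for Clec4a3 and from -1.06 to 3.27 for Clec4d. Without composition scaling, 29 of 144 group levels moved by more than the spread between replicates. Counts near 0 limit Clec4d, Clec4e, Clec4n and Clec10a in MG.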
